A study of Mus musculus with 20 samples.

Results

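The 10 autophagy genes described here were Sqstm1, Map1lc3a, Map1lc3b, Gabarapl1, Trp53inp2, Bnip3, Ulk1, Becn1, Ctsl and Atg12. They were chosen by name, as the probe sets whose platform annotation gives 1 of these symbols, and they had 20 of the 22626 probe sets that are not controls. All 10 genes were among the 8486 genes tested, with 19 of the 13576 probe sets tested, and each gene was read on its brightest tested probe set. The probe set left out, the third of Atg12, was too dim (between 12.8 and 69.8 in intensity).

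RNA from skeletal muscle was hybridised to 1 Affymetrix 3' expression array per mouse, from 20 mice in 4 groups of 5. The groups were trained transgenic mice (TGT), untrained transgenic mice (TGUT), trained wild-type mice (WTT) and untrained wild-type mice (WTUT), and the transgenic mice over-express MHC-I, the class of proteins that present peptides on the cell surface. The series asks how endurance training acts in these mice. Titles and source names gave the groups, while a description field that calls every sample transgenic and trained contradicts them and was not used. The promoter that drives the transgene, the muscle, the strain, sex and age of the mice, and the training protocol do not appear in the labels used here, so no statement is made on whether the groups share them. In whole muscle, fewer cells of a type and less RNA per cell cannot be told apart.

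Macroautophagy encloses parts of the cell in a membrane that closes into an autophagosome and fuses with a lysosome, where the cargo is degraded. The kinase ULK1 starts the process, a lipid kinase complex that contains beclin 1 marks the membrane, and a conjugation system that uses ATG12 attaches small proteins of the ATG8 family (the LC3 and GABARAP proteins) to it. Receptors such as p62 and BNIP3 bind both cargo and ATG8 proteins, and many of these genes are known to be transcribed more in muscle during fasting and atrophy, under FoxO transcription factors and glucocorticoids.

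All 20 arrays carried the muscle RNA that the labels name: the 10 genes of the skeletal muscle fibre list (Ckm, Acta1, Mb and mostly fast fibre genes) were at a summed intensity between 141084 and 152598 on every array, and no marker of any list was at 0. Array medians lay between 157 and 175. The array of trained wild-type mouse wtt-137 had 822 of its 22690 cells empty, and this mouse stood low for several of the genes below. Slow fibre genes were lower in the transgenic mice, with sums between 2783 and 5561, against 5147 to 17128 in the wild-type mice. Sums of the macrophage list were between 2933 and 3519 in trained wild-type mice, against 2448 to 2832 in untrained wild-type mice. In transgenic mice the macrophage sums were 2408 to 2934 after training and 2360 to 2779 without it.

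Training was accompanied by higher Map1lc3a and Trp53inp2 and by lower Sqstm1 and Ulk1, averaged over the genotypes. These 4 of the 10 genes were called, that is, they passed an adjusted p of 0.05 in limma with Benjamini-Hochberg adjustment over all 13576 probe sets, where 4.99% of all probe sets were called (2.41% higher and 2.59% lower). At an unadjusted p under 0.05 there were 9 of the 10 genes, against 20.7% of all probe sets. The genes and lists were chosen with earlier results of these data known, and 6 of the 10 genes varied together between mice. The shares set beside those of all probe sets, here and further on, are therefore descriptions and carry no test. The median log2 difference, trained minus untrained, was -0.37 over the 10 genes and 0.00 over all probe sets, and 8 of the 10 genes had values below 0. No gene was called for training within 1 genotype, for the transgene or for the interaction, as described further on.

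**Figure D1:**
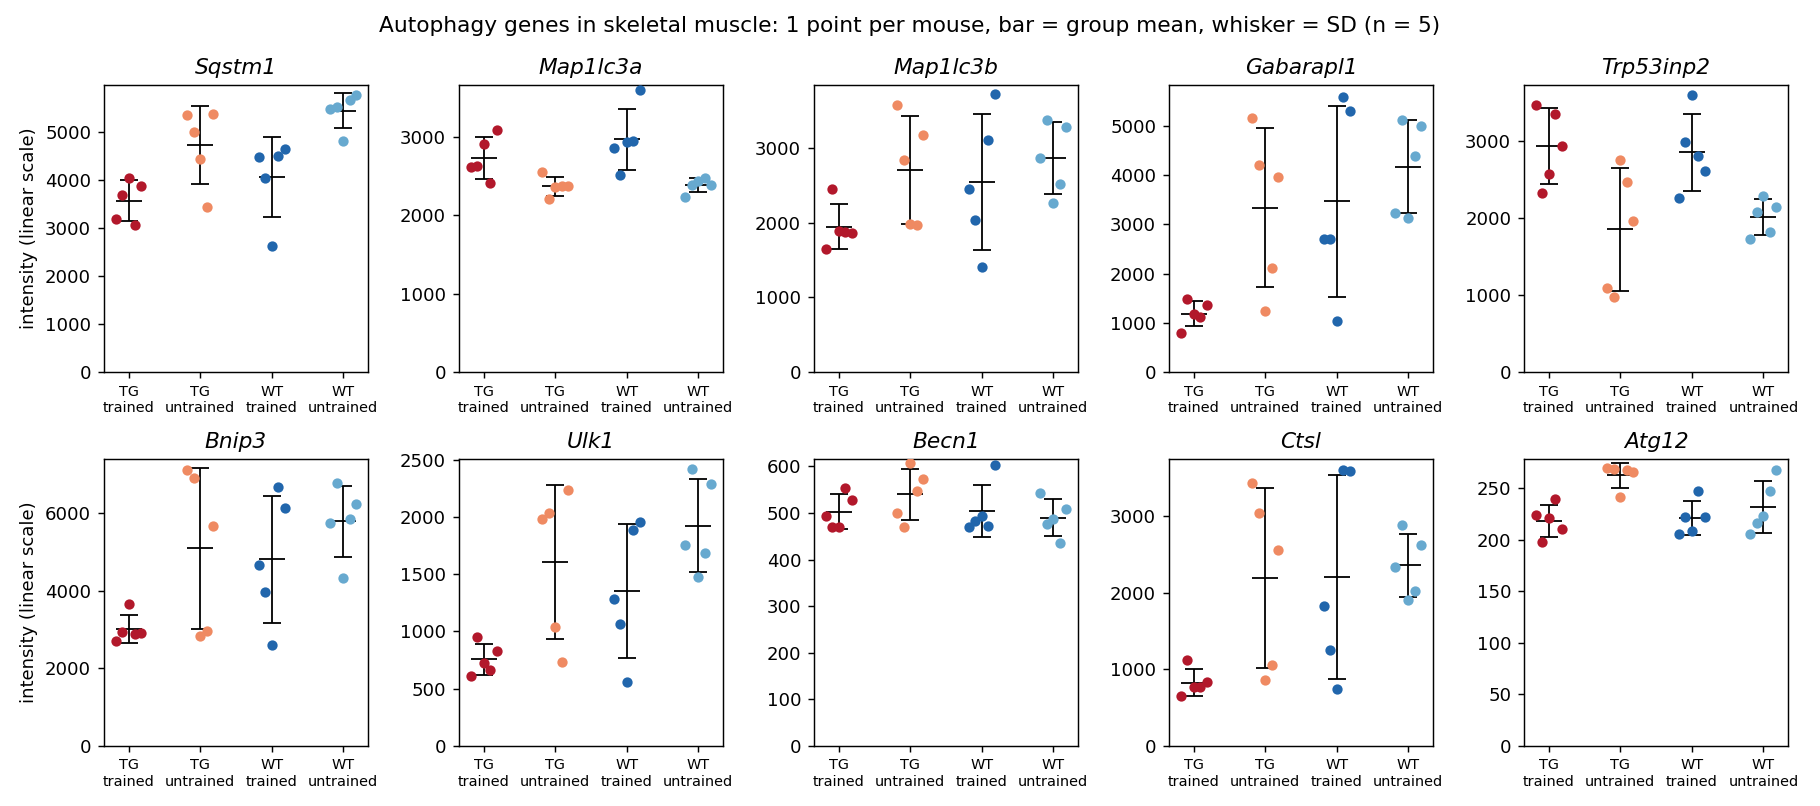
Intensity on a linear scale of each of the 10 genes in each of 20 mice, with the group mean and SD (n = 5 mice per group). The 5 trained transgenic mice lie close together and low for Gabarapl1, Bnip3, Ulk1 and Ctsl, while untrained transgenic and trained wild-type mice spread over the whole range.

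Ulk1, the kinase that starts autophagosome formation, was lower in trained mice. In transgenic mice, Ulk1 intensities were 613, 662, 723, 829.8 and 948 after training, against 732, 1039, 1982, 2037 and 2237 without it. The wild-type values were 553, 1068, 1285, 1884 and 1958 in trained mice, against 1473, 1683, 1755, 2284 and 2416 in untrained mice. The trained transgenic mice held 3 values below every untrained transgenic mouse, while in the wild-type mice 3 trained animals were below the lowest untrained one and 2 were inside the untrained range. Mean intensity was 1052 ± 509 over the 10 trained mice and 1764 ± 550.2 over the 10 untrained mice (SD). The averaged log2 difference was -0.76 ± 0.21 (SE), a 1.69-fold lower level (limma adjusted p = 0.0459). A second Ulk1 probe set fell by 0.75 (adjusted p = 0.039), and the 2 probe sets followed each other over the mice (r = 0.98 of the deviations from group means, 20 arrays). The Ulk1 call was close to the threshold: with 1 mouse left out it remained in 5 of 20 fits, those without TGUT-145, TGUT-146, WTT-141, WTT-144 or WTUT-136, and the adjusted p reached 0.0911 in the others.

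Becn1 encodes beclin 1 of the lipid kinase complex, and it was called in no comparison. In transgenic mice, Becn1 intensities were 469, 469.7, 493, 528 and 554 after training, against 469.7, 500.4, 546, 574 and 608 without it. In wild-type mice they were 469, 472, 483, 494 and 603 after training, against 436, 476, 486, 509 and 543 without it. All groups overlapped, with WTT-144 the highest of the trained wild-type mice. Its averaged training difference was -0.03 ± 0.05, with a 95% confidence interval of -0.14 to 0.09 (adjusted p = 0.847). The other 3 probe sets of Becn1 had training differences of -0.02, 0.00 and 0.01, and wtt-137 has no value on the pair of them whose names end in _x_at.

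Atg12, the ubiquitin-like protein of the conjugation system, was dim, and its groups had coefficients of variation between 4.6% and 10.9%. In transgenic mice, Atg12 intensities were 197, 210.5, 221, 224 and 239 after training, against 241, 266, 268, 268 and 270.05 without it. Trained wild-type mice had 206, 209, 222, 222 and 247, against 206, 216, 224, 247 and 268 in untrained wild-type mice. All 5 trained transgenic mice were below all 5 untrained transgenic mice, and the wild-type groups overlapped. The difference was -0.21 ± 0.06 in transgenic mice (adjusted p = 0.0811), -0.05 ± 0.06 in wild-type mice (adjusted p = 0.933) and -0.13 ± 0.04 on average (adjusted p = 0.0709). The average was called in 1 of 20 fits that leave out a mouse, that without TGUT-145 (adjusted p = 0.0384). A second tested probe set of Atg12 did not follow the first (r = 0.11 of deviations, 20 arrays) and had an averaged training difference of 0.01 ± 0.05.

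Of the 3 ATG8 family genes, Map1lc3a rose with training. It encodes LC3A, and its values were narrow within groups. In transgenic mice, Map1lc3a intensities were 2411, 2619.9, 2629, 2916 and 3094 after training, against 2211, 2356, 2371, 2372 and 2553 without it. For wild-type mice the values were 2514, 2856, 2931, 2943 and 3594 with training, against 2239, 2380.1, 2387, 2439 and 2479 without it. All 5 trained wild-type mice were above all 5 untrained wild-type mice, and 4 of 5 trained transgenic mice were above the highest untrained transgenic mouse. Over both genotypes Map1lc3a averaged 2851 ± 339.98 in trained mice and 2379 ± 101 in untrained mice (SD, n = 10 each), and the log2 difference of 0.25 ± 0.06 was called (limma adjusted p = 0.0182). The call remained in all 20 fits with 1 mouse left out. It was the steadiest of the 4 calls and also the smallest, a 1.19-fold difference.

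Map1lc3b, which encodes LC3B, the form most often used as an autophagosome marker, was not called. In transgenic mice, Map1lc3b intensities were 1647, 1868, 1877, 1886 and 2455 after training, against 1962, 1979, 2838, 3172 and 3578 without it. Among wild-type mice, the trained ones had 1401, 2029, 2456, 3112 and 3727, against 2257, 2515, 2869, 3284 and 3376 in the untrained ones. The groups overlapped, 4 of the 5 trained transgenic mice were below every untrained transgenic mouse, and the trained wild-type mice held both the lowest and the highest of the 20 values. The averaged training difference was -0.33 ± 0.15 (95% interval -0.64 to -0.01, adjusted p = 0.218). Both other bright probe sets of Map1lc3b differed by -0.35 and -0.43, uncalled, and followed the first with r = 0.95 and 0.98 over 20 arrays, while the dim one differed by 0.07 and did not (r = 0.28).

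Gabarapl1 encodes a GABARAP-like protein, and it had the largest training difference of the 10 genes. In transgenic mice, Gabarapl1 intensities were 802, 1110.2, 1185, 1361 and 1481 after training, against 1242, 2107, 3957, 4208 and 5165 without it. Wild-type mice had 1028, 2705, 2707, 5312 and 5592 when trained, against 3130.5, 3234, 4393, 4990.3 and 5121 when untrained. Each trained transgenic mouse was below the median of the untrained ones, and 3 of the 5 were below all of them. TGUT-145 lay inside the trained range and TGUT-146 above it, below the other 3. The difference was -1.30 ± 0.39 in transgenic mice (adjusted p = 0.0964), -0.45 ± 0.39 in wild-type mice (adjusted p = 0.889) and -0.88 ± 0.27 on average (95% interval -1.45 to -0.30, adjusted p = 0.07), none of them called. With 1 mouse left out the average was called in 3 of 20 fits, without TGUT-145 (adjusted p = 0.0166), WTT-141 (0.0458) or WTT-144 (0.0377), and the difference in transgenic mice in the fit without TGUT-145 (-1.60, adjusted p = 0.0193). The difference in wild-type mice rested largely on wtt-137 and was -0.086 without it. The second probe set of Gabarapl1 had an averaged difference of -0.94 and followed the first (r = 0.97, 20 arrays).

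The promoters of Gabarapl1 and, further on, of Bnip3 are shown because each holds a searched motif upstream of the gene's outermost annotated start. Upstream sequences of 250 bases were at hand from RefSeq (GRCm38.p6) for 7 of the 10 genes and were searched on both strands for the forkhead motifs GTAAACA and ATAAACA, bound by FoxO factors, and for the E-box CACGTG, bound by TFEB and by hypoxia and clock factors among others. The motifs did not overlap. Of 32851 mouse promoters in the same table, 3.17% hold GTAAACA, 4.16% ATAAACA and 6.02% CACGTG. In Gabarapl1 (chr6:129532942-129533191, plus strand) ATAAACA, in capitals, begins at -95, counted back from the start site.
Gabarapl1: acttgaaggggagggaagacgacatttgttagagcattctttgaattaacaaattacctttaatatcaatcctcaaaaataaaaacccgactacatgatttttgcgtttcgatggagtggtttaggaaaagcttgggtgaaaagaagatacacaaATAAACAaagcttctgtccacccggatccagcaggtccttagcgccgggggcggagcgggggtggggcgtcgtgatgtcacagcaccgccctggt
Sqstm1, Map1lc3b, Trp53inp2 and Ulk1 hold none of these letters in the window, and a match is a description of the letters, not a binding site. The windows of Ulk1, Ctsl and Trp53inp2 end at a transcript start that is not the outermost annotated start of the gene.

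Sqstm1, which encodes the cargo receptor p62, was lower in trained mice of both genotypes. In transgenic mice, Sqstm1 intensities were 3058, 3187, 3691, 3879 and 4051 after training, against 3444, 4434, 5014, 5367 and 5386 without it. The trained wild-type mice had 2631, 4042, 4477, 4508 and 4659, against 4821, 5481, 5527, 5667 and 5779 in the untrained wild-type mice. All 5 trained wild-type mice were below all 5 untrained wild-type mice, with wtt-137 far below the other trained ones. In the transgenic mice the groups overlapped through TGUT-146, and 2 trained mice were below it. Sqstm1 averaged 3818 ± 677 in the 10 trained mice and 5092 ± 709.7 in the 10 untrained mice (SD). The log2 difference was -0.42 ± 0.10 on average, 1.33-fold lower (limma adjusted p = 0.0225). It was -0.39 ± 0.14 in transgenic mice (adjusted p = 0.155) and -0.44 ± 0.14 in wild-type mice (0.307), neither of them called. The call of the average was lost without TGT-128 (adjusted p = 0.0505) or TGT-140 (0.0511) and remained without any other single mouse.

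Bnip3 encodes a receptor in the outer mitochondrial membrane that draws mitochondria into autophagosomes. In transgenic mice, Bnip3 intensities were 2712, 2894, 2910.1, 2939 and 3653 after training, against 2831, 2966, 5681, 6906 and 7113 without it. In wild-type mice the intensities were 2612, 3958, 4662, 6138 and 6683 after training, against 4326, 5744, 5855, 6244 and 6792 without it. The trained transgenic mice lay within a narrow band apart from TGT-133, which was above it, while the untrained transgenic mice fell into 3 high values and 2, from TGUT-145 and TGUT-146, at the trained level. The averaged training difference was -0.48 ± 0.18 (95% interval -0.86 to -0.10, adjusted p = 0.124) and was called in 1 of 20 fits with a mouse left out, that without TGUT-145 (adjusted p = 0.0409). In the Bnip3 promoter (chr7:138909507-138909756, minus strand, GRCm38.p6) the E-box CACGTG, in capitals, begins at -108.
Bnip3: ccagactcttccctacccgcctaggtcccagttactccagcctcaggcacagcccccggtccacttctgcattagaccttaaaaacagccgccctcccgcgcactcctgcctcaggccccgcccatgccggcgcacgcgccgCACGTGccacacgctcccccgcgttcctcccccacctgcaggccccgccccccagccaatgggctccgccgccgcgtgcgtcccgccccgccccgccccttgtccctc

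Ctsl encodes cathepsin L, a lysosomal protease that digests the delivered cargo. In transgenic mice, Ctsl intensities were 648, 762, 771, 831 and 1114 after training, against 859, 1049, 2562, 3038 and 3435 without it. Wild-type values were 735, 1249.5, 1824, 3589 and 3601 in trained mice, against 1905, 2019, 2335, 2623 and 2888 in untrained mice. The trained transgenic mice were all low, 4 of them below every untrained transgenic mouse, and the trained wild-type mice ranged from a value as low as theirs to the highest of all 20 mice. The training difference was -1.16 ± 0.39 in transgenic mice (adjusted p = 0.13), -0.31 ± 0.39 in wild-type mice (adjusted p = 0.947) and -0.74 ± 0.28 on average (adjusted p = 0.123). Without TGUT-145 the average was called (adjusted p = 0.0415), as was the difference in transgenic mice (-1.43, adjusted p = 0.0334). The wild-type value rested on wtt-137 and was 0.006 without it. An E-box was also found at -236 in the Ctsl window, which does not end at the outermost annotated start of the gene and is not printed.

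Trp53inp2 encodes a nuclear protein that leaves the nucleus on autophagy induction and binds ATG8 proteins, and it was the gene with the larger of the 2 higher differences. In transgenic mice, Trp53inp2 intensities were 2320.2, 2571, 2928, 3347 and 3462 after training, against 976, 1087, 1961, 2458 and 2753 without it. Wild-type intensities were 2253, 2606, 2803, 2982 and 3589 in trained mice, against 1718, 1809, 2078, 2143 and 2284 in untrained mice. Each trained mouse was above the median of the untrained mice of its genotype, and 4 of 5 trained wild-type mice were above all untrained ones. The untrained transgenic mice ranged widely, with TGUT-131 and TGUT-139 lowest of all 20 mice and TGUT-145 and TGUT-146 at the trained level. Trp53inp2 averaged 2886 ± 466 in the 10 trained mice and 1927 ± 561 in the 10 untrained mice (SD), a log2 difference of 0.61 ± 0.16, 1.53-fold higher (limma adjusted p = 0.0318). This call was lost without TGT-128 (adjusted p = 0.0666), TGT-140 (0.0633), TGUT-131 (0.061), TGUT-139 (0.0518), wtt-134 (0.0524), wtt-137 (0.0617), WTUT-130 (0.0563) or WTUT-135 (0.0546), and remained in the other 12 fits.

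**Figure D2:**
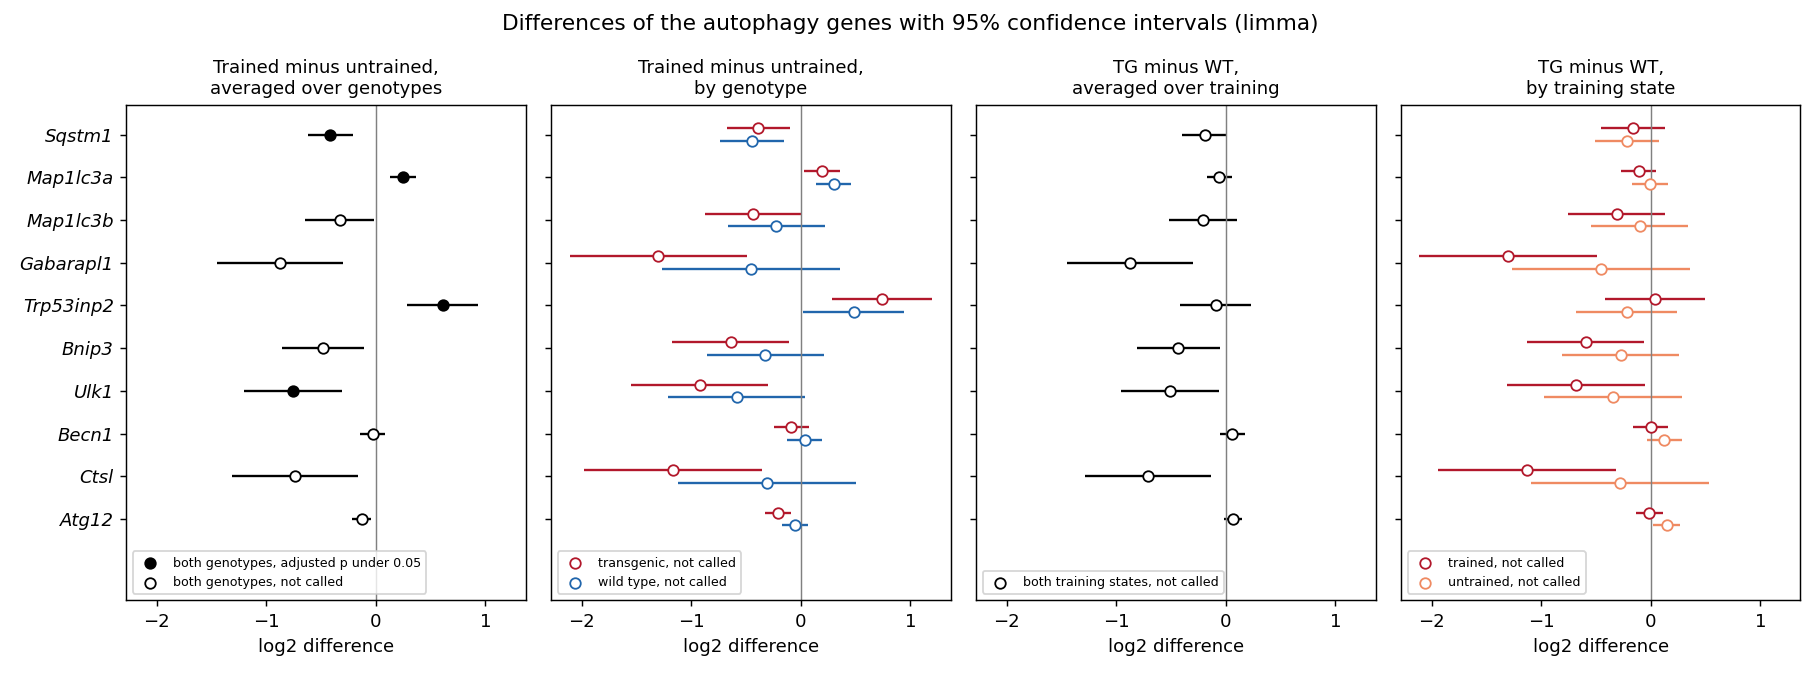
Log2 differences of the 10 genes with 95% confidence intervals from limma, for training and for the transgene, averaged and within each stratum, with filled points where the adjusted p was under 0.05. The 4 filled points, Sqstm1, Map1lc3a, Trp53inp2 and Ulk1, are all in the averaged training comparison.

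Within 1 genotype, training gave no call among the 10 genes. In transgenic mice 0 of 10 were called by limma, where 0.309% of all probe sets were, and 8 had an unadjusted p under 0.05, against 17.4% of all probe sets. The median of the 10 genes was -0.41, from -1.30 for Gabarapl1 to 0.74 for Trp53inp2 (adjusted p = 0.0951). Leaving out TGUT-145 gave 4 calls (Gabarapl1, Ctsl and Atg12 lower, Trp53inp2 higher), with 5.61% of all probe sets then called, and leaving out TGUT-146 gave 2 (Ulk1 lower, Trp53inp2 higher), with 2.06% then called. In wild-type mice 0 of 10 were called and 3 had an unadjusted p under 0.05 (Sqstm1, Map1lc3a and Trp53inp2), against 0.0% and 7.87% of all probe sets, with a median of -0.27. The difference between the genotypes in response, the interaction, was called for 0 of 10 genes and had an unadjusted p under 0.05 for none, where 0.0% and 2.91% of all probe sets passed. Its widest values were those of Gabarapl1, -0.85 ± 0.55 (95% interval -1.99 to 0.30), and Ctsl, -0.85 ± 0.55 (-2.00 to 0.30), so that neither equal nor unequal responses were resolved with 5 mice a group.

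The transgene comparison, transgenic minus wild-type mice, gave no call for these genes either. Averaged over training, 0 of 10 genes were called by limma, where 1.23% of all probe sets were, and 4 had an unadjusted p under 0.05, against 17.3%: Gabarapl1 at -0.88 ± 0.27 (adjusted p = 0.111), Ctsl at -0.71 ± 0.28 (0.194), Ulk1 at -0.51 ± 0.21 (0.224) and Bnip3 at -0.43 ± 0.18 (0.224). The median of the 10 genes was -0.20. In trained mice the same 4 genes had an unadjusted p under 0.05, against 12.5% of all probe sets, with -1.30 ± 0.39 for Gabarapl1 (adjusted p = 0.228), -1.13 ± 0.39 for Ctsl (0.277), -0.68 ± 0.30 for Ulk1 (0.365) and -0.59 ± 0.26 for Bnip3 (0.355), while 0 of 10 were called and 0.0516% of all probe sets were. In untrained mice 0 of 10 were called, where 0.11% of all probe sets were, and Atg12 alone had an unadjusted p under 0.05 (0.14 ± 0.06, adjusted p = 0.504), against 8.12%. Without wtt-137, the lowest trained wild-type mouse for Gabarapl1, its transgene difference was called both on average (-1.06, adjusted p = 0.0177) and in trained mice (-1.67, adjusted p = 0.0354), in fits that called 3.87% and 1.05% of all probe sets. Trained transgenic mice enter both the training and the transgene comparison of Gabarapl1 and Ctsl, so these are not separate observations. The part of the lower slow fibre markers of transgenic mice, or of the macrophage markers, in these values was not tested.

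By group mean, from lowest to highest, Sqstm1, Map1lc3b, Bnip3 and Ulk1 ran in the order TGT, WTT, TGUT, WTUT. Of neighbours in this order, only TGT and WTT differed by more than the SD of each group, and only for Bnip3 (3022 ± 364 against 4811 ± 1647) and Ulk1 (755 ± 134.8 against 1349.6 ± 586). Gabarapl1 and Ctsl ran TGT, TGUT, WTT, WTUT, and only TGT stood apart from its neighbour: Gabarapl1 averaged 1188 ± 260.2 in TGT and 3336 ± 1612 in TGUT, and Ctsl 825 ± 175 in TGT and 2189 ± 1171 in TGUT (SD, n = 5). Map1lc3a ran TGUT, WTUT, TGT, WTT, with a step beyond both SDs between TGT (2734 ± 269.9) and WTUT (2385 ± 91.1). Trp53inp2 ran TGUT, WTUT, WTT, TGT, with such a step between WTT (2847 ± 496) and WTUT (2006 ± 236). For Becn1 the order was WTUT, TGT, WTT, TGUT with no such step, and for Atg12 TGT, WTT, WTUT, TGUT with one between TGUT (263 ± 12.1) and WTUT (232 ± 25.2). The ranges of every neighbouring pair overlapped.

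The spread itself differed between groups for some genes. The coefficient of variation of Gabarapl1 was 21.9% in TGT, 48.3% in TGUT, 55.9% in WTT and 22.7% in WTUT, and that of Ctsl was 21.2%, 53.5%, 60.5% and 17.4% in the same groups. For the called genes, in the same order, it was 12.1%, 17.2%, 20.5% and 6.8% for Sqstm1 and 9.9%, 5.1%, 13.2% and 3.8% for Map1lc3a. It was 16.7%, 43.2%, 17.4% and 11.8% for Trp53inp2 and 17.8%, 41.9%, 43.4% and 21.2% for Ulk1. The linear model gives all groups 1 spread per probe set, and the calls of these genes rest on it. The difference in spread was not tested.

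**Figure D3:**
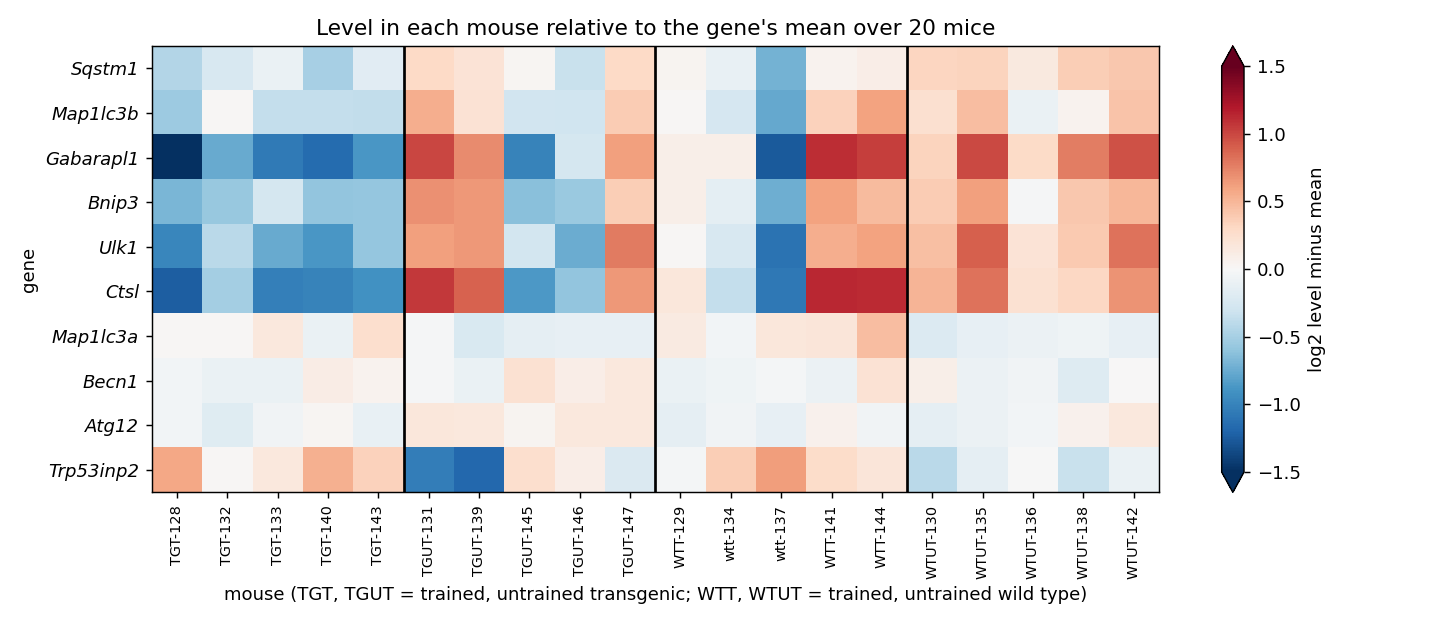
Log2 level of each gene in each mouse, minus the gene's mean over the 20 mice (colour, red above and blue below the mean), with mice in columns by group. Sqstm1, Map1lc3b, Gabarapl1, Bnip3, Ulk1 and Ctsl share their high and low mice, and Trp53inp2 runs opposite in several.

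Of the 10 genes, 6 varied together from mouse to mouse within the groups. For Sqstm1, Map1lc3b, Gabarapl1, Bnip3, Ulk1 and Ctsl, Pearson's r of the deviations from group means lay between 0.77 and 0.95 over the 15 pairs (20 arrays, which share 1 scaling; these 6 were picked after their values were seen). Their r with Trp53inp2 lay between -0.76 and -0.59, with Map1lc3a between 0.24 and 0.33, with Atg12 between 0.13 and 0.42, and with Becn1 between -0.24 and 0.05. TGT-128, TGT-140, TGUT-145, TGUT-146, wtt-137 and WTUT-136 were below their group's mean for all 6 genes. TGUT-131, TGUT-139, TGUT-147, WTT-141, WTT-144, WTUT-135 and WTUT-142 were above it for all 6. These values are descriptions over the same 20 arrays and carry no test. The r between other tested genes was not summarised beside them, here or for the lists further on. They therefore do not show that the shared pattern is particular to autophagy genes. BC005537, which is on no list here, had an r of 0.98 with Ulk1.

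**Figure D4:**
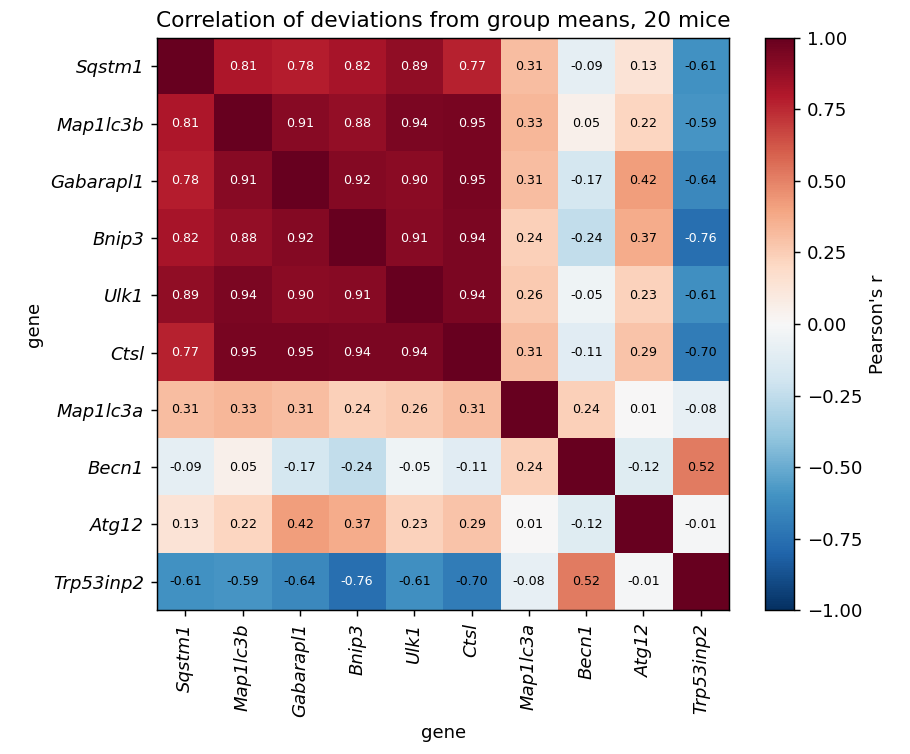
Pearson's r between deviations from group means for each pair of the 10 genes over 20 arrays. A block of 6 genes has values of 0.77 and above, and Trp53inp2 is negative against all 6.

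Targets of glucocorticoids and of fasting varied in the same mice. The mean deviation of 12 such genes (Fkbp5, Tsc22d3, Per1, Sgk1, Klf15, Pdk4, Mt1, Mt2, Ddit4, Cebpd, Nfkbia and Zbtb16) had an r of 0.93 with Gabarapl1, 0.89 with Map1lc3b, 0.88 with Ctsl, 0.83 with Bnip3, 0.82 with Ulk1, 0.65 with Sqstm1 and -0.51 with Trp53inp2 over the 20 arrays. All 12 of 12 had averaged training differences below 0, with a median of -0.44, 0 called by limma and 8 with an unadjusted p under 0.05, where 4.99% and 20.7% of all probe sets passed. In transgenic mice the median was -0.74 and 11 of 12 had an unadjusted p under 0.05, against 17.4% of all probe sets. In wild-type mice the median was -0.12, 5 of 12 were above 0 and 0 of 12 had an unadjusted p under 0.05, against 7.87%. The interaction had an unadjusted p under 0.05 for 4 of 12, against 2.91%, and was called for 0. Their summed intensity ranged from 21753 to 26353 in TGT, 26144 to 53330 in TGUT, 23142 to 50365 in WTT and 36791 to 54332 in WTUT, with none at 0. The smallest p among them was that of Pdk4, a kinase that holds back glucose oxidation, at -0.69 ± 0.21 (adjusted p = 0.0594). The part of these genes' state in the differences of the autophagy genes was not tested. The 5 tested genes of the FoxO and atrophy ligase list followed the 6 genes likewise (r from 0.85 for Sqstm1 to 0.93 for Gabarapl1, and -0.76 for Trp53inp2). In averaged training 0 of these 5 had a difference above 0, and the median was -0.41. Of the 5, 4 had an unadjusted p under 0.05 and 1 was called, where 20.7% and 4.99% of all probe sets passed. The called gene was Foxo3, a transcription factor of autophagy genes, which fell by 0.52 (adjusted p = 0.0427, called in 8 of 20 fits with a mouse left out). Slow fibre genes had r between -0.28 and 0.18 with the 10 genes, and macrophage genes between -0.36 and 0.29.

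Among all tested genes, those most like the called ones in their deviations over the 20 arrays were Tacc2 (0.92), Prpf6 (0.92) and Clip1 (0.89) for Sqstm1, and Aup1 (0.81), Fau (0.79) and Dnajc30 (0.77) for Map1lc3a, as Pearson's r. For Trp53inp2 they were Map7d1 (0.95), Dynll2 (0.95) and Dusp3 (0.93), and for Ulk1 they were BC005537 (0.98), Pnpla7 (0.97) and Prpf6 (0.97).

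The other genes of the pathway were called in shares near those of all probe sets. Of 78 autophagy and lysosome genes tested besides the 10, out of 85 on the array, 1 was higher and 4 were lower with averaged training, where 4.99% of all probe sets were called. An unadjusted p under 0.05 was found for 21 of the 78, against 20.7% of all probe sets, and the median was -0.04. Retreg1, a receptor for the degradation of endoplasmic reticulum, fell by 0.74 (adjusted p = 0.029), with group means of 2846 in TGT, 6116 in TGUT, 5934 in WTT and 7340.4 in WTUT. The cargo receptor Tax1bp1 fell by 0.35 (adjusted p = 0.0321), Nrbf2, a subunit of the lipid kinase complex, by 0.49 (0.0418), and Zkscan3, known as a repressor of autophagy genes, by 0.26 (0.0342). The mitophagy receptor Bcl2l13 rose, with a difference of 0.18 ± 0.05 (adjusted p = 0.0428). Of the 20 fits with 1 mouse left out, the call remained in 14 for Retreg1 (adjusted p up to 0.0621), 10 for Tax1bp1 (up to 0.068), 9 for Zkscan3 (up to 0.071), 5 for Nrbf2 (up to 0.0827) and 5 for Bcl2l13 (up to 0.0897).

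With the transgene, 2 of the 78 genes were lower and 0 higher, where 0.906% of all probe sets were lower and 0.324% higher. An unadjusted p under 0.05 was found for 19 of them, against 17.3% of all probe sets, and the median was -0.04. Atp6v1a, a subunit of the proton pump that acidifies lysosomes, fell by 0.49 (adjusted p = 0.026, called in 14 of 20 fits with a mouse left out), and Nrbf2 fell by 0.57 (adjusted p = 0.0456, called in 5 of 20). The interaction was called for 0 of the 78, and 0 had an unadjusted p under 0.05. Where a list had no call, its gene with the smallest p was Ulk2 of the ULK complex (training -0.21 ± 0.07, adjusted p = 0.0883), Vps18 of autophagosome fusion (-0.14 ± 0.05, 0.0754), Atg3 of conjugation (-0.16 ± 0.07, 0.169), Atg2b of lipid transfer (-0.20 ± 0.08, 0.179) and Gabarap of the ATG8 family (transgene -0.21 ± 0.09, 0.224).

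**Figure D5:**
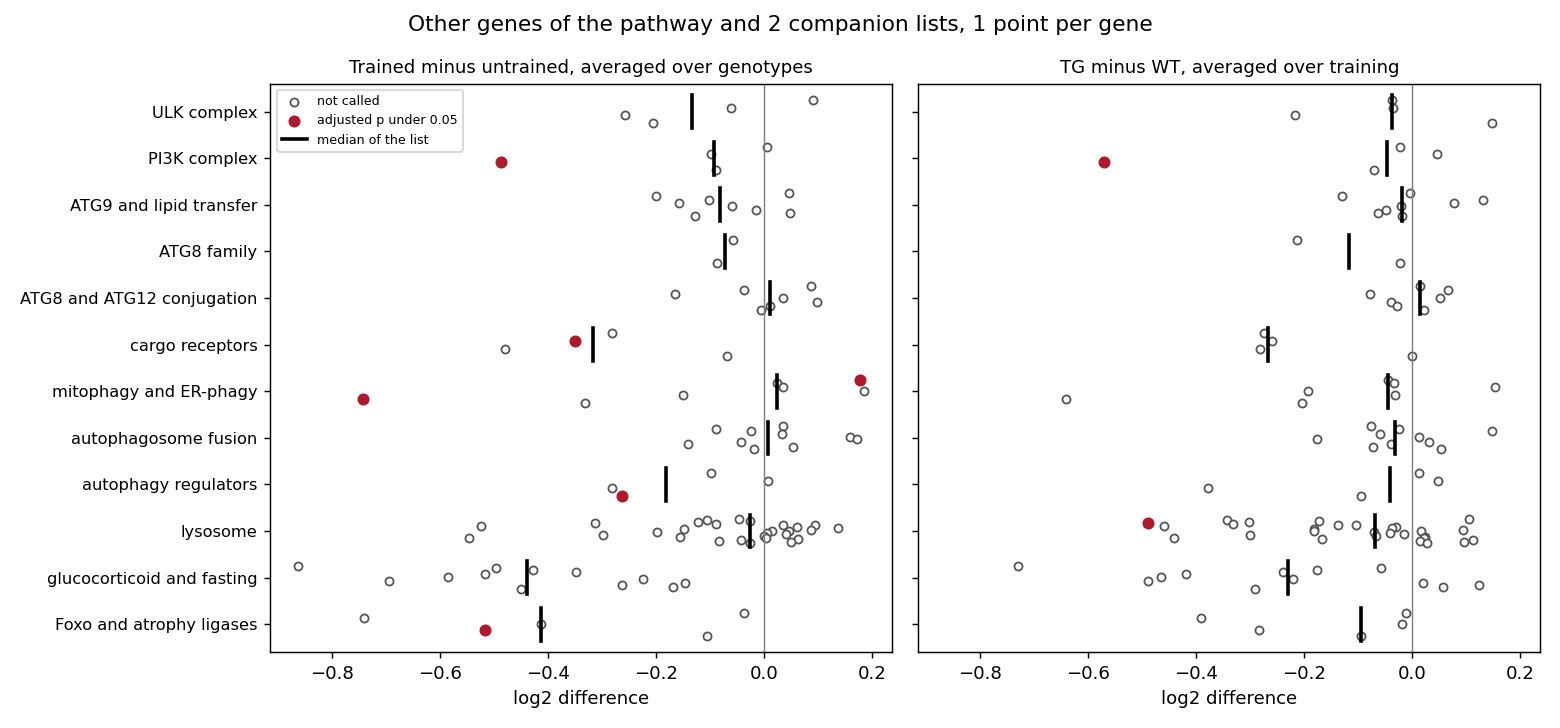
Log2 differences of the other genes of the pathway and of the glucocorticoid and FoxO lists, 1 point per gene, with the list median as a bar, for averaged training and the averaged transgene. The bars of the glucocorticoid, FoxO and cargo receptor lists lie farthest below 0 with training, and the called genes include Retreg1 and Nrbf2.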

How the data were processed

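Each of 20 arrays measured the skeletal muscle RNA of 1 mouse. The deposited values are intensities, linear and 1 per probe set. Array medians ran from 157 to 175, so the arrays were taken as already brought to 1 scale by the authors, and the labels do not name the summary and scaling methods. Of 22690 probe sets, 64 controls were left out. The constant 66.7 (the 20th percentile of all values) was added before taking log2, which shrinks the fold changes of dim genes. A filter blind to group, at the 40th percentile of mean level (log2 7.59, about 126 in intensity), left 13576 probe sets. The 1745 empty cells (0.385%) were treated as missing. Gene symbols are those of the platform annotation. There were 20380 probe sets with 1 symbol, 691 with several and 1555 with none, and 20351 matched a RefSeq table (GRCm38.p6), with 0 symbols changed.

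A linear model of the 4 groups was fitted in limma 3.58.1 (R 4.3.3), with two-sided tests of 7 comparisons and a variance trend (16 residual degrees of freedom, 3.47 prior). Benjamini-Hochberg adjustment ran over all probe sets of a comparison. Each log2 difference is trained minus untrained or transgenic minus wild type. The fit was tested on simulated data with independent noise, the same spread in all groups and no empty cells. That test does not cover deviations shared between genes, spreads that differ between groups, or empty cells. The number of arrays limits the precision.

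The members, gene lists, tests and alternatives were chosen with earlier results of these data known. The 10 genes are all named. From each wider list the rule names called genes, at most 2 per direction, or else the gene with the smallest p. It can be read per comparison or per list, and the reading per list over the averaged training, averaged transgene and interaction comparisons was taken after the values of both had been seen. The 6 genes that vary together, the promoter motifs and the pair of promoters shown were also chosen after values were seen. Alternatives were 2 normalizations, 2 constants, 2 filters, 2 variance models, array weights, the compared groups alone, 2 choices of probe sets, leaving out each mouse in turn, and leaving out the 2 arrays with the most empty cells.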

Additional observations from a re-analysis of the deposited data

Results flagged for a closer look

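In 3 of the 40 groups of 5 mice (10 genes in 4 groups), 1 mouse lay far from the other 4 by Dixon's criterion, where chance gives about 1 in 20 groups. Bnip3 was at 3653 in the trained transgenic mouse TGT-133, against 2712 to 2939 in the other 4. The array of TGT-133 had 386 empty cells, the most after wtt-137, and the highest array median (174.9). Becn1 was at 603 in the trained wild-type mouse WTT-144, against 469 to 494 in the other 4. Atg12 was at 241 in the untrained transgenic mouse TGUT-145, against 266 to 270.05 in the other 4. The cause was not tested.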

How the results depend on the processing

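There were 103 results and 33 alternative settings. Of 2685 alternative values of single genes, 2469 kept their direction and their side of the threshold, 47 gained a call and 34, all uncalled, changed sign (18 of them with 1 mouse left out). Only 383 of these values belong to results that were called, and of those 248 kept the call and the others lost it. The cause was not tested, apart from what a setting itself removes.

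Of the 10 genes, 4 were called for averaged training. Array weights gave 9 (2 higher, 7 lower), with 20.4% of all probe sets called, against 4.99%. Without the probe sets that bind more than 1 transcript there were 2, both higher, with Sqstm1, Ctsl and Atg12 lacking a value (3.77% of all called), and leaving out the 2 arrays with the most empty cells gave 2 (1 higher, 1 lower; 3.02%). With 1 mouse left out the count ran from 1 to 8, lowest without TGT-128 or TGT-140 (2.06% of all probe sets called in each) and highest without TGUT-145 (9.46%). For training in transgenic mice, array weights gave 8 (18.2% of all called, against 0.309%) and leaving out 1 mouse 0 to 4 (0.0147% to 5.61%). For the transgene in trained mice, array weights gave 4 (7.48%, against 0.0516%) and leaving out 1 mouse 0 to 1 (0.0147% to 1.05%, the highest without wtt-137). For the averaged transgene, the fit without the 2 arrays gave 1 (2.94%, against 1.23%), and leaving out 1 mouse 0 to 1 (0.582% to 3.87%). Training in wild-type mice, the transgene in untrained mice and the interaction stayed at 0 with any 1 mouse left out. The Ulk1 call for averaged training was lost with arrays centred on their medians (adjusted p = 0.0618), with no filter (0.0621), without the multi-transcript probe sets (0.0526) and without the 2 arrays (0.0882), and that of Trp53inp2 without the 2 arrays (0.0611).

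The values that changed sign, on the log2 scale, were these. Under quantile normalization the averaged transgene difference was 0.017 for Map1lc3a and 0.0046 for Bcl2l13, that in trained mice 0.050 for Becn1, and that in untrained mice 0.041 for Map1lc3a. With array weights, Becn1 was at -0.021 for training in wild-type mice and 0.048 for the transgene in trained mice, and Atg12 at 0.012 for the transgene in trained mice. Array weights also gave, for the transgene in untrained mice, 0.031 for Map1lc3a, 0.10 for Map1lc3b, 0.044 for Bnip3 and 0.13 for Ctsl, and -0.21 for the Sqstm1 interaction. The mean of probe sets gave 0.0076 for Atg12, transgene in trained mice. Without the 2 arrays, Ctsl was at 0.0063 for training in wild-type mice, Becn1 at 0.015 for the transgene in trained mice and Sqstm1 at -0.14 for the interaction. With 1 mouse left out, values that crossed 0 ran from -0.089 to 0.11 for the Sqstm1 interaction, from -0.54 to 0.0063 for Ctsl and -0.024 to 0.068 for Becn1 (training in wild-type mice), from -0.175 to 0.0047 for Trp53inp2 (averaged transgene), and from -0.034 to 0.017 for Map1lc3a (transgene in untrained mice). For the transgene in trained mice they ran from -0.039 to 0.13 for Trp53inp2, from -0.032 to 0.058 for Becn1 and from -0.039 to 0.018 for Atg12. No paired analysis was possible because no mouse number occurs in more than 1 group.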
